A study of Mus musculus with 76 samples.

Results

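Of 37980 genes in the deposited table, 9 that encode tyrosine kinases of T cell and B cell antigen receptor signaling were followed across every sorted cell group of the series. They were chosen by gene name and family: Lck, Fyn, Lyn and Blk of the Src family, Zap70 and Syk of the Syk family, and Txk, Btk and Tec of the Tec family. All 9 were found in the table and all 9 passed the filter on low values. The study asks whether pro/pre-B cells given the transcription factor Hoxb5 can become T cells. It profiled RNA from 1000 sorted cells per library in 24 groups, all from mice of C57BL/6 background. The 15 natural groups were, from bone marrow, hematopoietic stem cells (HSC), multipotent progenitors (MPP), early T progenitors (BM_ETPs), Pro-_Pre-B cells, and mature T cells, B cells and Myeloid cells. From thymus they were early T progenitors (Thy_ETPs), CD4 and CD8 double negative phases DN1 to DN4, double positive cells (DP), and single positive cells (CD4_SP and CD8_SP). The 9 induced groups carry the prefix i: BM_iETPs from marrow, and Thy_iETPs, iDN1 to iDN4, iDP, iCD4_SP and iCD8_SP from thymus. Induced cells descend from pro/pre-B cells that were infected with a Hoxb5 virus in culture, sorted, and placed into sublethally irradiated recipients. Every induced group shares the virus, the transplant and an irradiated host, and no natural group is labelled as sharing them. The promoter of the virus, the sort gates and the number of animals behind a library are not given in the sources used here. Nothing in the labels ties the libraries of one group to separate animals, so each p-value rests on the spread between libraries of a group. In the fit over all groups that spread was pooled over all 24 groups.

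An antigen receptor has no kinase activity of its own. When it binds antigen, a Src family kinase (Lck and Fyn in T cells, Lyn, Blk and Fyn in B cells) phosphorylates the tyrosine motifs of its signaling chains. A Syk family kinase (Zap70 in T cells, Syk in B cells) docks there and phosphorylates adaptors, and a Tec family kinase (such as Txk in T cells, Btk and Tec in B cells) then activates phospholipase C gamma. In the thymus the same relay is first used by the pre-T cell receptor at the passage from DN3 to DN4 and again by the mature receptor in DP cells. In the marrow Syk and Btk serve the pre-B cell receptor.

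In the GRCm38 annotation (GENCODE vM21), Lck lies on the minus strand at chr4:129548344-129573641, Fyn on the plus strand at chr10:39368855-39565381, Lyn on the plus strand at chr4:3678115-3813122 and Blk on the minus strand at chr14:63372836-63417037. Zap70 lies on the plus strand at chr1:36761798-36782818 and Syk on the plus strand at chr13:52583173-52648792. Txk (chr5:72695978-72752777) and Tec (chr5:72755716-72868483) are neighbours on the minus strand of one chromosome, and Btk is on the X chromosome at chrX:134542336-134583570, minus strand. Fyn, Lyn, Zap70, Txk and Btk overlap small genes or pseudogenes on the other strand, and whether the counting used strand is not given in the sources used here. RefSeq (GRCm38.p6) gave start regions for 7 of the 9, all but Lyn and Blk. The 250 bases before the start are printed for Lck, Zap70 and Txk, which with Fyn were higher in T cells than in B cells (the window of Fyn overlaps an annotated exon and is not shown), 5' to 3' on the gene's own strand. Lck has 2 entries and is known to be transcribed from a distal and a proximal promoter. Capitals mark matches on either strand of the ETS core GGAAG, the Runx motif TGTGGT and the E-box CANNTG, and a capital stretch can hold overlapping matches.
Lck, upstream start, chr4:129573642-129573891, minus strand: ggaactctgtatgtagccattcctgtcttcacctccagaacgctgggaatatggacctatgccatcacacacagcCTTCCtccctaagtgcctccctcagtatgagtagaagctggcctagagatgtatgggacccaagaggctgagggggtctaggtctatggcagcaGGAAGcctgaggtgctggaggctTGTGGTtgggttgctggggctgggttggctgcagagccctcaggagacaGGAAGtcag
Lck, downstream start, chr4:129558373-129558622, minus strand: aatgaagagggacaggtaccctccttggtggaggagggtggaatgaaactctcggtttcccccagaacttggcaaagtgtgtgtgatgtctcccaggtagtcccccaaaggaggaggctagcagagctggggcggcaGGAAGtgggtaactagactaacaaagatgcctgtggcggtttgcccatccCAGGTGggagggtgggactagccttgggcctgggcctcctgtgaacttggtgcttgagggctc
Zap70, chr1:36761548-36761797, plus strand: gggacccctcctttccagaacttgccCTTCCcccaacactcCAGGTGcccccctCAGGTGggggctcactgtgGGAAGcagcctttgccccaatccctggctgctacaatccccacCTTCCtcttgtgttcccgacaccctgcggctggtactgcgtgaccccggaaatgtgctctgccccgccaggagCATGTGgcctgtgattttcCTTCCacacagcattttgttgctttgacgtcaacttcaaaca
Txk, chr5:72752778-72753027, minus strand: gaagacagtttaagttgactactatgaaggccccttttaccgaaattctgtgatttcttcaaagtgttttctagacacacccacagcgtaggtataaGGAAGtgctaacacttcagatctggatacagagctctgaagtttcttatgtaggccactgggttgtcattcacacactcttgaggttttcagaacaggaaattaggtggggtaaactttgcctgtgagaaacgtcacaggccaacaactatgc
The upstream Lck window held 3 ETS matches, 1 Runx match and 0 E-boxes, and the downstream one held 1, 0 and 1. That of Zap70 held 4 ETS matches, 0 Runx matches and 3 E-boxes, and that of Txk held 1, 0 and 0. These counts are for the printed entries, which are the first of 3 for Zap70 and of 2 for Txk, and the second entry of each holds 1 Runx match. Over all 32851 windows of this length, 64.1% held an ETS match, 14.0% a Runx match and 66.2% an E-box, so the matches are described and nothing is drawn from them. The deposited values are per gene and do not separate the starts.

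Values are FPKM, fragments scaled by transcript length and by library size, so levels can be compared between genes. One library of the Pro-_Pre-B group, replicate 3, was identical to replicate 1 and was left out, which leaves 75 libraries. Library totals ran from 667660 to 2004005 FPKM, and libraries of a group correlated across genes with r of 0.91 to 0.976. Marker lists matched the labels of the mature groups: summed T lineage markers were 5421 to 5756 FPKM in T cells and summed B lineage markers 7633 to 10413 FPKM in B cells. BM_iETPs went the other way from a T progenitor label, with 9 of 10 B lineage markers at 1 FPKM or more and a summed level of 10996 to 11125 FPKM (Pro-_Pre-B 13008 to 13988), while Cd3d, Cd3e, Cd3g, Cd6, Bcl11b and Trbc2 were listed at 0. T lineage markers summed to 39.2 to 44.5 FPKM there and to 1.94 to 7.07 in natural BM_ETPs, where Cd3e, Cd3g and Cd2 were listed at 0. Natural DN1 stood apart, with natural killer markers summing to 3983 to 4712 FPKM (iDN1 1948 to 2471) and Igkc at 1741, 3446 and 89.5 FPKM in its 3 libraries. Sex transcripts moved with many of the comparisons. Xist, transcribed from the inactive X chromosome, was 2.44 to 16.3 FPKM in the 29 induced libraries, 3.59 to 7.95 in BM_ETPs and Thy_ETPs and 93.5 to 96.5 in Myeloid cells. It was 0.449 to 1.39 FPKM in DN1, 0 to 1.78 in natural DN2 to CD8_SP and 0 in every Pro-_Pre-B, B cell and T cell library. Ddx3y, a Y chromosome gene, was 0 in BM_ETPs and Thy_ETPs, 0 to 0.207 FPKM in Myeloid cells and 0 to 0.767 in induced libraries other than Thy_iETPs. It was 3.71 to 5.55 in DN1, 0.325 to 32.5 in natural DN2 to CD8_SP, 14.3 to 20.2 in Pro-_Pre-B cells and 6.43 to 28.6 in B and T cells. Where compared groups differ in these transcripts, sex and group cannot be told apart. In these bulk samples, fewer cells of a type and less RNA per cell cannot be told apart.

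Among Src family kinases, Lck, the kinase carried by the CD4 and CD8 coreceptors, was the most abundant of the 9 at every thymic stage. It reached 2301, 2211, 1878 and 1923 FPKM in the 4 DP libraries, and 1638 ± 180.3 FPKM (SD, n = 3) in iDP, 1428 ± 106 FPKM (SD, n = 3) in T cells and 1406 ± 73.9 FPKM (SD, n = 4) in iCD4_SP. The DP libraries all lay above the iDP ones, iDP and T cells overlapped, and so did T cells and iCD4_SP. From there to DN1 (721 ± 30.99 FPKM (SD, n = 3)) most neighbouring groups overlapped, and iDN1 was the lowest thymic group at 638, 575, 592 and 638 FPKM. A wide gap followed, with the B cell libraries next (28.8 to 64.7 FPKM). Pro-_Pre-B cells had 25.6, 44.6 and 24.8 FPKM, overlapping with MPP (23.1 to 31.2), and below MPP and HSC (9.73 to 20.5) came BM_ETPs (6.50, 4.48 and 4.05), Myeloid cells (3.08 and 2.39) and BM_iETPs (2.60 and 0.649).

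Fyn, the second Src kinase of T cells, was present in every library: its lowest value in any of the 75 libraries was 12.3 FPKM and its highest 225. It was highest in CD4_SP (215, 225 and 212 FPKM), above every library of any other group. T cells (157 ± 17.8 FPKM (SD, n = 3)), iDN1 (146 ± 9.14 FPKM (SD, n = 4)) and DN1 (131 ± 20.3 FPKM (SD, n = 3)) overlapped in order and stood above iCD4_SP (73.4, 81.7, 81.6 and 93.2 FPKM), which in turn stood above all the rest. CD8_SP (54.3 ± 4.10 FPKM (SD, n = 3)) opened a long run of groups, most neighbours overlapping, that ended with MPP (15.2 ± 2.58 FPKM (SD, n = 4)).

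Lyn, the Src kinase that starts and also restrains B cell and myeloid receptor signals, was highest outside the T lineage. Myeloid cells (176 and 184 FPKM) and B cells (141 to 177) overlapped at the top, Pro-_Pre-B cells followed with 78.2, 88.4 and 90.5 FPKM and BM_iETPs with 36.7 and 34.9, each above the next group without overlap. BM_ETPs and HSC each overlapped with MPP, which ran between 14.03 and 27.4 FPKM. Along the thymic stages to DP, leaving DN1 aside, the means ran from 10.1 FPKM in Thy_ETPs to 5.99 in DN2, 2.23 in DN3, 0.617 in DN4 and 0.137 in DP, where 2 of 4 libraries were listed at 0. The same induced stages ran alongside, from 10.2 FPKM in Thy_iETPs to 5.73, 2.86, 0.819 and 0.444 in iDP. DN1 and iDN1 were apart, with means of 11.8 and 2.83 FPKM.

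Blk, named for B lymphocytes, was not restricted to them. B cells were highest (283, 397, 299.7 and 364 FPKM), then came Pro-_Pre-B cells (115, 99.6 and 109), which iDN1 overlapped (98.5, 68.1, 89.3 and 104). Natural DN1 (56.1, 66.4 and 63.8 FPKM) lay below all iDN1 libraries and above those of every group not yet named. DN4, Thy_ETPs, iDN4, Thy_iETPs, BM_iETPs and iDN2 formed an overlapping run with means of 37.5 to 20.5 FPKM, and DN3, iDN3 and DN2 lay between 11.7 and 9.57. DP cells were near 0. They had 0.462 FPKM in replicate 1 and 0 listed in the other 3. HSC and BM_ETPs were listed at 0 in every library.

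**Figure D1:**
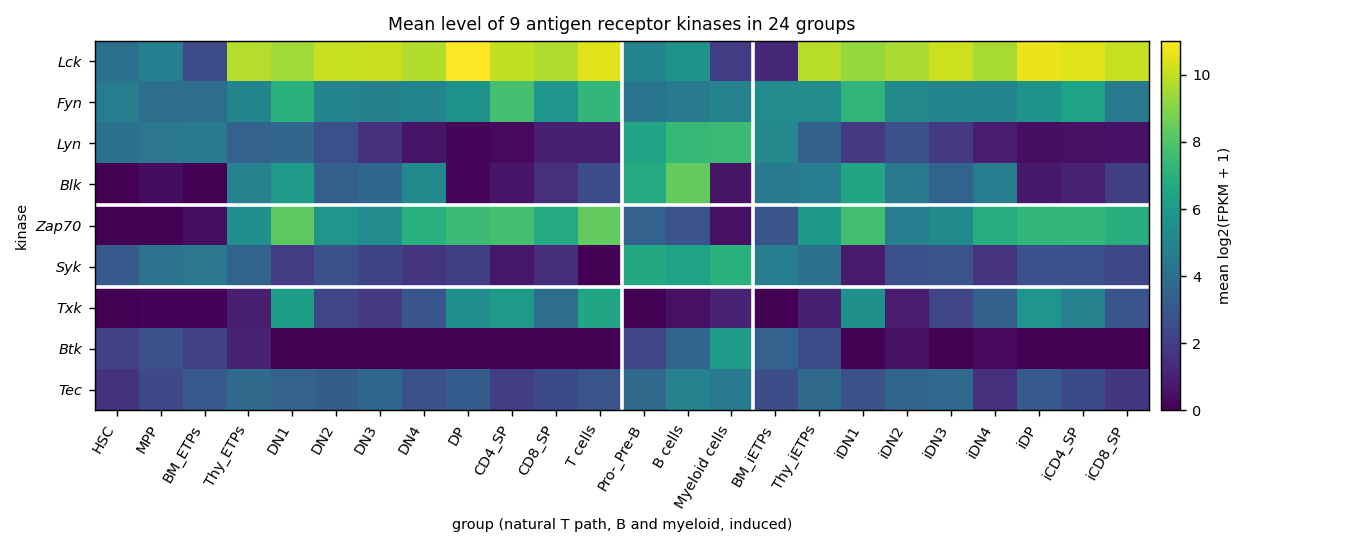
Mean log2(FPKM + 1) of each kinase (rows, grouped by Src, Syk and Tec family) in each of the 24 groups (columns: natural T path, B and myeloid cells, induced cells), as colour. Lck is bright in every thymic group and T cells, and Lyn and Syk are bright in B and myeloid cells. Btk is brightest in Myeloid cells (6.09) and darker in B cells (3.58), and Blk is bright in B cells, Pro-_Pre-B cells, DN1 and iDN1.

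Zap70 and Syk divided the series between them. In the 53 libraries of the 17 groups from thymus or of mature T cells Zap70 exceeded Syk in all 53, and in the 22 libraries of the 7 other groups (HSC, MPP, BM_ETPs, BM_iETPs, Pro-_Pre-B, B and Myeloid cells) it did so in 0. The mean log2 ratio of Zap70 to Syk, each with 1 FPKM added, was 8.30 in T cells, -3.53 in B cells and -3.25 in Pro-_Pre-B cells. BM_iETPs lay on the B side, at -1.13 and -2.54 in its 2 libraries, while Thy_iETPs were at 1.75 ± 0.51 (SD, n = 3) and natural Thy_ETPs at 1.96 ± 0.76 (SD, n = 2). Induced and natural thymic precursors therefore overlapped in this ratio. At the single positive stages the ratio was 7.03 ± 0.55 in CD4_SP (n = 3) and 4.59 ± 0.34 in iCD4_SP (SD, n = 4), with no overlap.

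Zap70 itself, the kinase that binds the phosphorylated CD3 chains, was highest in T cells (369.9, 299.6 and 311 FPKM), which overlapped with DN1 (321, 308 and 291). Below a gap, CD4_SP, iDN1, DP, iDP and iCD4_SP overlapped with means of 218 to 157 FPKM, and DN4, iCD8_SP, iDN4 and CD8_SP with means of 127 to 108. Natural DN2 replicate 2 had 100.01 FPKM beside 38.1 and 38.2 in the other libraries. The lowest thymic group was iDN2 (22.3 and 28.8 FPKM). Zap70 was present at low level in Pro-_Pre-B cells (12.2, 8.96 and 9.03 FPKM), BM_iETPs (12.1 and 3.01) and B cells (3.96 to 9.30), and was listed at 0 in all 8 libraries of HSC and MPP.

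Syk, which serves the pre-B and B cell receptors and Fc receptors, was highest in Myeloid cells (134 and 128 FPKM), then in Pro-_Pre-B cells (103, 100.4 and 108) and B cells (59.8, 112, 78.2 and 80.2), which overlapped. BM_iETPs (27.7 and 22.3 FPKM) lay far below the Pro-_Pre-B libraries and overlapped with BM_ETPs (23.7, 17.6 and 18.6). Thy_iETPs had 14.9, 19.04 and 15.04 FPKM and Thy_ETPs 11.8 and 9.91, without overlap. From there on no thymic group exceeded a mean of 6.70 FPKM, and T cells were listed at 0, 0 and 0.108.

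**Figure D2:**
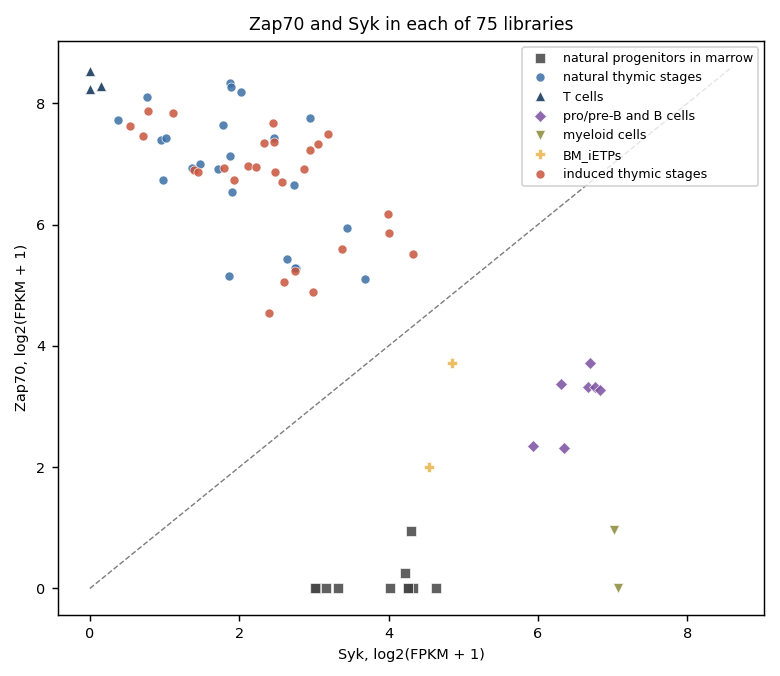
Zap70 (vertical) against Syk (horizontal), both as log2(FPKM + 1), with 1 point per library and a dashed line of equal levels. All 53 thymic and T cell libraries lie above the line and all 22 others below it, the 2 BM_iETPs libraries among them.

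In the Tec family, Txk, a kinase of resting T cells, followed the T side. T cells had 124, 71.7 and 85.3 FPKM, and DN1 (74.03, 71.7 and 64.4), CD4_SP (65.2, 66.1 and 49.3), iDP (68.7, 75.2 and 29.4), iDN1 and DP overlapped in turn down to 29.4 FPKM. It was low in early precursors, with 0.499 to 1.46 FPKM in Thy_ETPs and 0.608 to 1.87 in Thy_iETPs, and listed at 0 in every HSC, Pro-_Pre-B and BM_iETPs library. Libraries of one group disagreed in natural DN2 (0.452, 28.5 and 1.72 FPKM) and natural DN3 (0 and 11.9), so the means of those groups describe no single library.

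Btk, the kinase mutated in X-linked agammaglobulinemia, was highest in Myeloid cells (68.98 and 65.8 FPKM). B cells (11.2, 15.2, 17.4 and 4.59), BM_iETPs (5.79 and 16.6), MPP (8.08, 2.21, 7.12 and 7.50), Thy_iETPs (6.31, 6.04 and 2.55), Pro-_Pre-B (2.17, 3.20 and 7.80), BM_ETPs and HSC overlapped in turn. Natural Thy_ETPs had 1.31 and 0.956 FPKM. Every natural library from DN1 to CD8_SP and every T cell, iDN1, iDP, iCD4_SP and iCD8_SP library was listed at 0. Btk was 0.452 and 0.380 FPKM in iDN2, 0 to 0.107 in iDN3 and 0 to 0.635 in iDN4, where 2 of 4 libraries were above 0. A single fragment of Btk was worth 0.0351 to 0.399 FPKM depending on the library, so such low values rest on few fragments.

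Tec gave its family its name and was detected in every group. B cells (32.4, 36.9, 24.6 and 21.7 FPKM) overlapped with Myeloid cells (18.6 and 24.4), and Pro-_Pre-B, Thy_iETPs, Thy_ETPs, iDN3, DN3 and iDN2 formed an overlapping run with means of 13.5 to 11.1 FPKM. The lowest group was iDN4 (1.13, 2.39, 2.24 and 1.50 FPKM), which overlapped with HSC (1.50 to 2.93) and iCD8_SP (1.82 to 3.71).

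The mature groups show the 2 receptor systems side by side. Between B cells and T cells all 9 kinases differed (limma on log2(FPKM + 1), Benjamini-Hochberg adjustment over 17416 genes, threshold 0.05), where 23.9% of all genes did in either direction. Higher in T cells were Lck (B minus T -4.82 ± 0.19 (SE), adjusted p = 9.41e-30), Fyn (-2.71 ± 0.21, 8.89e-17), Zap70 (-5.53 ± 0.28, 6.95e-25) and Txk (-6.03 ± 0.53, 1.79e-14), where the first value is the log2 difference with its SE and the second the adjusted p. Higher in B cells were Lyn (6.39 ± 0.32, 4.07e-25), Blk (5.77 ± 0.35, 2.99e-21), Syk (6.30 ± 0.27, 5.03e-28) and Tec (2.03 ± 0.28, 4.38e-08), and Btk, at 12.1 ± 5.63 FPKM (SD, n = 4), was listed at 0 in T cells. No library of one group reached into the other for any of the 9. Overlap of libraries was looked at throughout for the 9 kinases and not for all genes, so no share over all genes stands beside it. Of the other genes of the pathway, 10 of 12 B receptor chains and adaptors were higher in B cells (median log2 difference 5.33) and 15 of 20 T receptor chains, coreceptors and adaptors were lower (median -5.77), beside a median of 0 over all genes.

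Myeloid cells differed from T cells in all 9 kinases as well (45.9% of genes), with Lyn, Syk, Btk and Tec higher and Lck, Fyn, Blk, Zap70 and Txk lower. Blk was 0.603 ± 0.853 FPKM (SD, n = 2) against 6.43 ± 5.96 FPKM (SD, n = 3), and its call was lost with only these groups in the fit (adjusted p = 0.193). Estimated depth was lowest in the Myeloid libraries (0.989 and 0.987 fragments per FPKM and kilobase, median 4.21 over all libraries), so low values there rest on few fragments. Igkc was 988 and 940 FPKM in Myeloid cells and 0 in T cells, and its part was not tested. Against B cells, 4 of 9 differed in Myeloid cells (45.6% of genes): Lck (-3.76 ± 0.22 (SE), adjusted p = 1.49e-22), Blk (-7.81 ± 0.40 (SE), adjusted p = 4.17e-25) and Zap70 (-2.35 ± 0.32 (SE), adjusted p = 5.21e-09) were lower and Btk (2.52 ± 0.33 (SE), adjusted p = 3.13e-09) was higher. Lyn did not pass, with a difference of 0.14 (95% interval -0.59 to 0.86), nor did Syk, at 0.69 (95% interval 0.07 to 1.31). From Pro-_Pre-B to B cells 5 of 9 were higher (25% of genes): Blk (1.62 ± 0.35), Btk (1.29 ± 0.29), Tec (1.05 ± 0.28), Lyn (0.93 ± 0.32) and Lck (0.68 ± 0.19, log2 ± SE, adjusted p from 0.000199 to 0.0232). Each of these 5 calls was lost in at least 1 alternative, with adjusted p up to 0.362 for Lck and 0.306 for Lyn.

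**Figure D3:**
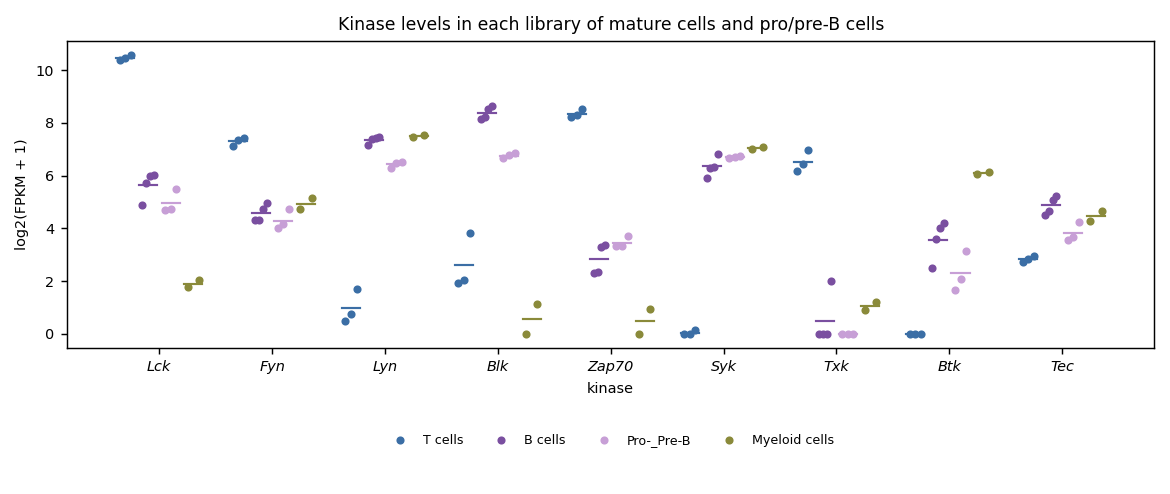
Log2(FPKM + 1) of each kinase in every library of T cells, B cells, Pro-_Pre-B cells and Myeloid cells, with bars at the group means. T and B cell libraries are apart for all 9 kinases, and every Pro-_Pre-B library lies on the B cell side of the T cell libraries.

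The next comparisons set induced cells against Pro-_Pre-B cells, which are not labelled as sharing the virus, the transplant or the irradiated host. Hoxb5, the virus, the culture, the transplant and the host cannot be told apart in them. BM_iETPs differed from Pro-_Pre-B cells in 7 of 9 kinases (15.5% of genes). Lck was 2.60 and 0.649 FPKM against 24.8 to 44.6 in Pro-_Pre-B cells (-3.69 ± 0.23 (SE), adjusted p = 4.05e-20). Syk (-2.02 ± 0.32 (SE), adjusted p = 2.85e-06), Blk (-2.25 ± 0.42 (SE), adjusted p = 4.16e-05), Lyn (-1.23 ± 0.38 (SE), adjusted p = 0.0173) and Tec (-1.17 ± 0.34 (SE), adjusted p = 0.0114) were lower too. Fyn (1.03 ± 0.25 (SE), adjusted p = 0.00192) and Btk (1.16 ± 0.35 (SE), adjusted p = 0.015) were higher. The libraries did not overlap for any of these 7 kinases except Btk. Summed myeloid markers were 1218 to 1715 FPKM in BM_iETPs. They ran from 30.1 to 4610 between the Pro-_Pre-B libraries, which also serve the comparisons below, and their part was not tested. All 7 calls were lost when only these groups of 2 and 3 libraries were fitted, with adjusted p of 0.132 (Syk) to 0.674 (Btk). In that fit 13 of all 17416 genes passed (0.0746%), so a lost call there says little about a kinase.

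In thymic induced progenitors Lck, Zap70 and Fyn were higher, and Lyn, Blk and Syk lower, than in Pro-_Pre-B cells. Thy_iETPs differed from Pro-_Pre-B cells in 6 of 9 (29.8% of genes). Lck was 902 FPKM against 31.7 in Pro-_Pre-B cells (4.84 ± 0.20 (SE), adjusted p = 3.47e-28). Zap70 was 57.8 against 10.1 (2.40 ± 0.30 (SE), adjusted p = 1.34e-09) and Fyn 40.4 against 19.1 (1.04 ± 0.22 (SE), adjusted p = 0.00017, or 0.111 with only these groups fitted). Lyn (-3.002 ± 0.34), Blk (-2.15 ± 0.37) and Syk (-2.60 ± 0.29, log2 ± SE) were lower. Btk and Tec did not pass, at 0.21 (95% interval -0.41 to 0.84) and -0.03 (95% interval -0.64 to 0.58). In iDP 8 of 9 differed from Pro-_Pre-B cells (24.9% of genes). Lck (5.69 ± 0.20 (SE), adjusted p = 1.07e-31), Zap70 (3.82 ± 0.30 (SE), adjusted p = 1.65e-16) and Fyn (1.38 ± 0.22 (SE), adjusted p = 1.13e-06) were higher. Txk was listed at 0 in Pro-_Pre-B cells and was 57.8 ± 24.8 FPKM (SD, n = 3) in iDP. Lyn (-5.98 ± 0.34 (SE), adjusted p = 2.48e-22), Blk (-6.01 ± 0.37 (SE), adjusted p = 1.23e-20) and Syk (-3.95 ± 0.29 (SE), adjusted p = 1.66e-17) were lower. Btk was 4.39 ± 3.00 FPKM (SD, n = 3) in Pro-_Pre-B cells and listed at 0 in iDP, and Tec was at -0.68 (95% interval -1.29 to -0.07). The 8 calls in iDP held in every alternative. Beside these comparisons, Xist was 0 and Ddx3y 14.3 to 20.2 FPKM in Pro-_Pre-B cells, and Xist was 8.65 to 10.4 in BM_iETPs, 2.44 to 5.28 in Thy_iETPs and 7.85 to 14.3 in iDP. Sex and group cannot be told apart in them, for X-linked Btk among the rest. In iDP against Pro-_Pre-B cells 18 of 20 T receptor genes were higher (median 6.60) and 9 of 12 B receptor genes were lower (median -6.55).

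Along the natural path, Lck and Zap70 rose between marrow and thymus. From BM_ETPs to Thy_ETPs 5 of 9 changed (14.5% of genes). Lck went from 6.50, 4.48 and 4.05 FPKM to 958 and 803 (7.21 ± 0.23 (SE), adjusted p = 4.91e-34). Zap70 went from 0, 0.194 and 0.936 to 33.4 and 60.4 (5.12 ± 0.33 (SE), adjusted p = 1.65e-19), and Blk went from listed at 0 to 35.8 and 22.5 FPKM. None of these libraries overlapped. Fyn rose (0.996 ± 0.25 (SE), adjusted p = 0.00248) and Btk fell (-1.05 ± 0.35 (SE), adjusted p = 0.0308), calls that were lost in 2 and 8 of 12 alternatives (adjusted p up to 0.150 and 0.220). BM_ETPs were rich in myeloid markers (summed level 25887 to 38751 FPKM, Thy_ETPs 74.98 to 81.4), and the part of those cells in these differences was not tested. Upstream, Lck was 15.9 ± 4.49 FPKM (SD, n = 4) in HSC, 26.5 ± 3.55 FPKM (SD, n = 4) in MPP and 5.01 ± 1.31 FPKM (SD, n = 3) in BM_ETPs, so it fell between MPP and BM_ETPs (-2.21 ± 0.19 (SE), adjusted p = 1.79e-14), the only 1 of 9 kinases to pass there (27.8% of genes). MPP differed from HSC in 4 of 9 (8.13% of genes), with Syk higher (1.08 ± 0.25 (SE), adjusted p = 0.00162) and changes of Lck (0.74 ± 0.18), Fyn (-0.69 ± 0.19) and Tec (0.81 ± 0.26, log2 ± SE) that were lost in 2, 3 and 7 of 15 alternatives (adjusted p up to 0.146, 0.0736 and 0.218). A replicate block ended the call of Tec (adjusted p = 0.0618). Xist was 0.0559, 0.0707, 3.66 and 5.04 FPKM in HSC replicates 1 to 4 and 0.0125, 0.149, 4.46 and 4.33 in MPP replicates 1 to 4, low in replicates 1 and 2 of both groups and higher in 3 and 4.

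Within the natural thymus, from DN2 to DN3, 0 of 9 kinases passed (limma, 1.56% of genes), with an unadjusted p under 0.05 for 1, Lyn. From DN3 to DN4, the passage of beta selection, 2 of 9 rose (6.72% of genes): Zap70 from 42.2 and 34.6 to 122, 119.5 and 139.8 FPKM (1.70 ± 0.33 (SE), adjusted p = 0.00032), and Blk from 11.4 and 12.00 to 27.8, 33.9 and 50.8 (1.55 ± 0.42 (SE), adjusted p = 0.0123). With only those groups fitted the adjusted p was 0.274 and 0.353, where 1 of all 17416 genes passed. Blk was also lost in 4 of the 11 other alternatives. From DN4 to DP 4 of 9 changed (24.6% of genes). Lck rose from 849, 868 and 859 to 2301, 2211, 1878 and 1923 FPKM (1.27 ± 0.19 (SE), adjusted p = 3.9e-07). Txk rose from 4.06, 9.24 and 7.56 to 40.5, 43.7, 47.04 and 34.3 (2.47 ± 0.53 (SE), adjusted p = 0.000245). Blk fell from 27.8, 33.9 and 50.8 to 0.462, 0, 0 and 0 (-5.09 ± 0.35 (SE), adjusted p = 8.83e-18). Fyn rose less (0.68 ± 0.21 (SE), adjusted p = 0.0115), a call lost in 3 of 14 alternatives (adjusted p up to 0.0652). No DN4 library overlapped with a DP library for these 4.

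At the single positive stages the Src kinases parted. In CD4_SP against DP 4 of 9 changed (26.7% of genes): Fyn rose from 45.5, 59.7, 48.8 and 41.3 to 215, 225 and 212 FPKM (2.14 ± 0.21 (SE), adjusted p = 1.31e-12). Lck fell to 1016, 931 and 1186 (-0.99 ± 0.19 (SE), adjusted p = 3.45e-05). Syk (-1.32 ± 0.27 (SE), adjusted p = 0.000108) and Tec (-1.18 ± 0.28 (SE), adjusted p = 0.000927) fell with overlapping libraries, and with only those groups fitted their adjusted p was 0.251 and 0.278. In CD8_SP against DP 4 of 9 changed (23.9% of genes), with Lck lower (-1.32 ± 0.19 (SE), adjusted p = 1.73e-07) and Blk higher (1.36 ± 0.35 (SE), adjusted p = 0.00214, 0.0861 with only these groups fitted and 0.0517 without CD8_SP replicate 3), while the calls of Zap70 (-0.80 ± 0.28) and Txk (-1.42 ± 0.53, log2 ± SE) were lost in 7 and 11 of 14 alternatives (adjusted p up to 0.203 and 0.261). Between the single positive groups 3 of 9 differed (22.7% of genes), all lower in CD8_SP: Fyn at 53.6, 58.7 and 50.5 FPKM (-1.98 ± 0.22 (SE), adjusted p = 2.36e-10). Txk was at 13.01, 15.00 and 16.4 against 65.2, 66.1 and 49.3 (-1.95 ± 0.57 (SE), adjusted p = 0.00814) and Zap70 was at 91.3, 106 and 126 against 171, 209.9 and 274 (-0.996 ± 0.30 (SE), adjusted p = 0.00968). With a pseudocount of 0.1 the calls of Txk and Zap70 were lost (adjusted p = 0.134 and 0.133), and that of Zap70 in 3 of the 12 other alternatives.

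Natural DN1 differed from DN2 in 7 of 9 kinases (26.4% of genes). From DN1 to DN2, Txk (-3.86 ± 0.57 (SE), adjusted p = 1.66e-07), Blk (-2.66 ± 0.37 (SE), adjusted p = 5.01e-08), Zap70 (-2.52 ± 0.30 (SE), adjusted p = 4.56e-10) and Fyn (-2.08 ± 0.22 (SE), adjusted p = 2.29e-11) were lower, and the call of Txk was lost with only these groups fitted (adjusted p = 0.124). Lck (0.55 ± 0.20), Lyn (-0.95 ± 0.34) and Syk (0.81 ± 0.29, log2 ± SE) also passed and were each lost in 5 to 7 of 14 alternatives (adjusted p up to 0.172, 0.347 and 0.345). The natural killer markers were lower too (DN2 935 to 1809.9 FPKM, with Klrb1c, Ncr1 and Eomes listed at 0). Dendritic markers summed to 600.03 to 825 FPKM in DN1 and 36.8 to 81.5 in DN2, and Igkc, given above for DN1, was 0, 2.15 and 0 in DN2. The part of these was not tested. From Thy_ETPs to DN2 2 of 9 passed (6.67% of genes): Blk (-1.56 ± 0.42 (SE), adjusted p = 0.012) was lower, and Btk went to listed at 0. These calls were lost in 4 and 8 of 13 alternatives (adjusted p up to 0.366 and 0.294). Dendritic markers summed to 1153 to 2035 FPKM in Thy_ETPs, above the DN2 range just given, and their part was not tested.

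On the induced path, from BM_iETPs to Thy_iETPs 5 of 9 changed (31% of genes): Lck rose from 2.60 and 0.649 to 932, 872 and 901 FPKM (8.53 ± 0.23 (SE), adjusted p = 1.57e-37). Zap70 rose from 12.1 and 3.01 to 71.4, 44.8 and 57.3 (2.995 ± 0.33 (SE), adjusted p = 5.47e-11). Tec rose (1.14 ± 0.34), and Lyn (-1.77 ± 0.38) and Btk (-0.94 ± 0.35, log2 ± SE) fell. Of these, Lck held in every alternative, and the others lost their call with only those groups fitted (adjusted p of 0.0598 for Lyn to 0.460 for Btk). B lineage markers summed to 10996 to 11125 FPKM in BM_iETPs and 93.9 to 135 in Thy_iETPs. Of 12 B receptor genes 9 were lower in Thy_iETPs and 1 was higher. Ddx3y was 0 in BM_iETPs and 2.65 to 4.39 FPKM in Thy_iETPs. The part of cell content and sex in this step was not tested. From Thy_iETPs to iDN2 3 of 9 were lower (13.8% of genes), namely Btk (-2.003 ± 0.35 (SE), adjusted p = 2.09e-05), Syk (-1.41 ± 0.32 (SE), adjusted p = 0.00128) and Zap70 (-1.14 ± 0.33 (SE), adjusted p = 0.0132), and each lost its call with only these groups fitted (adjusted p = 0.113, 0.0898 and 0.136). From iDN2 to iDN3 0 of 9 passed (limma, 0.901% of genes), with an unadjusted p under 0.05 for 4 (Lck, Lyn, Blk and Txk).

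From iDN3 to iDN4 6 of 9 changed (9.03% of genes). Zap70 rose from 36.4, 47.2 and 32.1 to 105, 121, 118 and 116 FPKM (1.57 ± 0.28 (SE), adjusted p = 4.37e-05). Blk rose from 7.58, 11.1 and 13.7 to 27.9, 24.5, 23.8 and 21.6 (1.14 ± 0.35 (SE), adjusted p = 0.0256). Tec fell from 12.1, 11.9 and 13.5 to 1.13, 2.39, 2.24 and 1.50 (-2.28 ± 0.28 (SE), adjusted p = 2.18e-08). Syk fell from 5.72, 9.35 and 5.04 to 2.82, 2.46, 1.62 and 1.73 (-1.26 ± 0.27 (SE), adjusted p = 0.000792). Lck (-0.62 ± 0.19) and Lyn (-1.04 ± 0.32, log2 ± SE) fell as well, and Lck, Lyn and Blk were lost in 4 to 7 of 14 alternatives (adjusted p up to 0.160, 0.294 and 0.454). No iDN3 library overlapped with an iDN4 library for the 6.

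From iDN4 to iDP 6 of 9 changed (19.6% of genes). Lck rose from 789, 750.4, 718 and 752 to 1814, 1645 and 1454 FPKM (1.12 ± 0.19 (SE), adjusted p = 7.13e-06) and Txk from 8.72, 10.03, 11.9 and 6.96 to 68.7, 75.2 and 29.4 (2.41 ± 0.53 (SE), adjusted p = 0.000433). Tec rose from 1.13, 2.39, 2.24 and 1.50 to 6.41, 10.7 and 6.99 (1.68 ± 0.28 (SE), adjusted p = 6.18e-06) and Syk from 2.82, 2.46, 1.62 and 1.73 to 6.71, 4.46 and 6.31 (1.11 ± 0.27 (SE), adjusted p = 0.0015). Blk fell from 27.9, 24.5, 23.8 and 21.6 to 1.85, 0 and 0.660 (-3.92 ± 0.35 (SE), adjusted p = 2.21e-13). Fyn rose with overlapping libraries (0.62 ± 0.21 (SE), adjusted p = 0.026), a call lost in 5 of 14 alternatives (adjusted p up to 0.117). From iDP to iCD4_SP 1 of 9 passed (9.86% of genes), Fyn, from 40.8, 55.3 and 56.3 to 73.4, 81.7, 81.6 and 93.2 FPKM (0.70 ± 0.21 (SE), adjusted p = 0.0212), a call lost in 4 of 14 alternatives (adjusted p = 0.146 without iDP replicate 1). From iDP to iCD8_SP 5 of 9 changed (19.2% of genes): Txk (-2.85 ± 0.53 (SE), adjusted p = 3.69e-05), Tec (-1.34 ± 0.28 (SE), adjusted p = 0.000264), Fyn (-1.14 ± 0.21 (SE), adjusted p = 2.82e-05) and Lck (-0.62 ± 0.19 (SE), adjusted p = 0.0146, 0.0802 without iDP replicate 1) fell, and Blk rose (1.35 ± 0.35 (SE), adjusted p = 0.00298, 0.0745 with only these groups fitted).

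Induced single positive cells parted from each other as natural ones did for Fyn and Txk. In iCD8_SP against iCD4_SP 3 of 9 differed (7.53% of genes): Fyn was 18.98, 20.4, 20.98 and 30.4 against 73.4, 81.7, 81.6 and 93.2 FPKM (-1.84 ± 0.19 (SE), adjusted p = 1.9e-10). Txk was 6.49, 4.27, 13.6 and 4.62 against 22.1, 36.6, 27.1 and 31.7 (-1.99 ± 0.49 (SE), adjusted p = 0.00476), and Blk was higher in iCD8_SP (1.09 ± 0.32 (SE), adjusted p = 0.0221). The call of Txk was lost with a pseudocount of 0.1 (adjusted p = 0.123) and that of Blk in 6 of 15 alternatives, up to 0.207. Zap70 did not pass here, at -0.32 (95% interval -0.84 to 0.19).

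**Figure D4:**
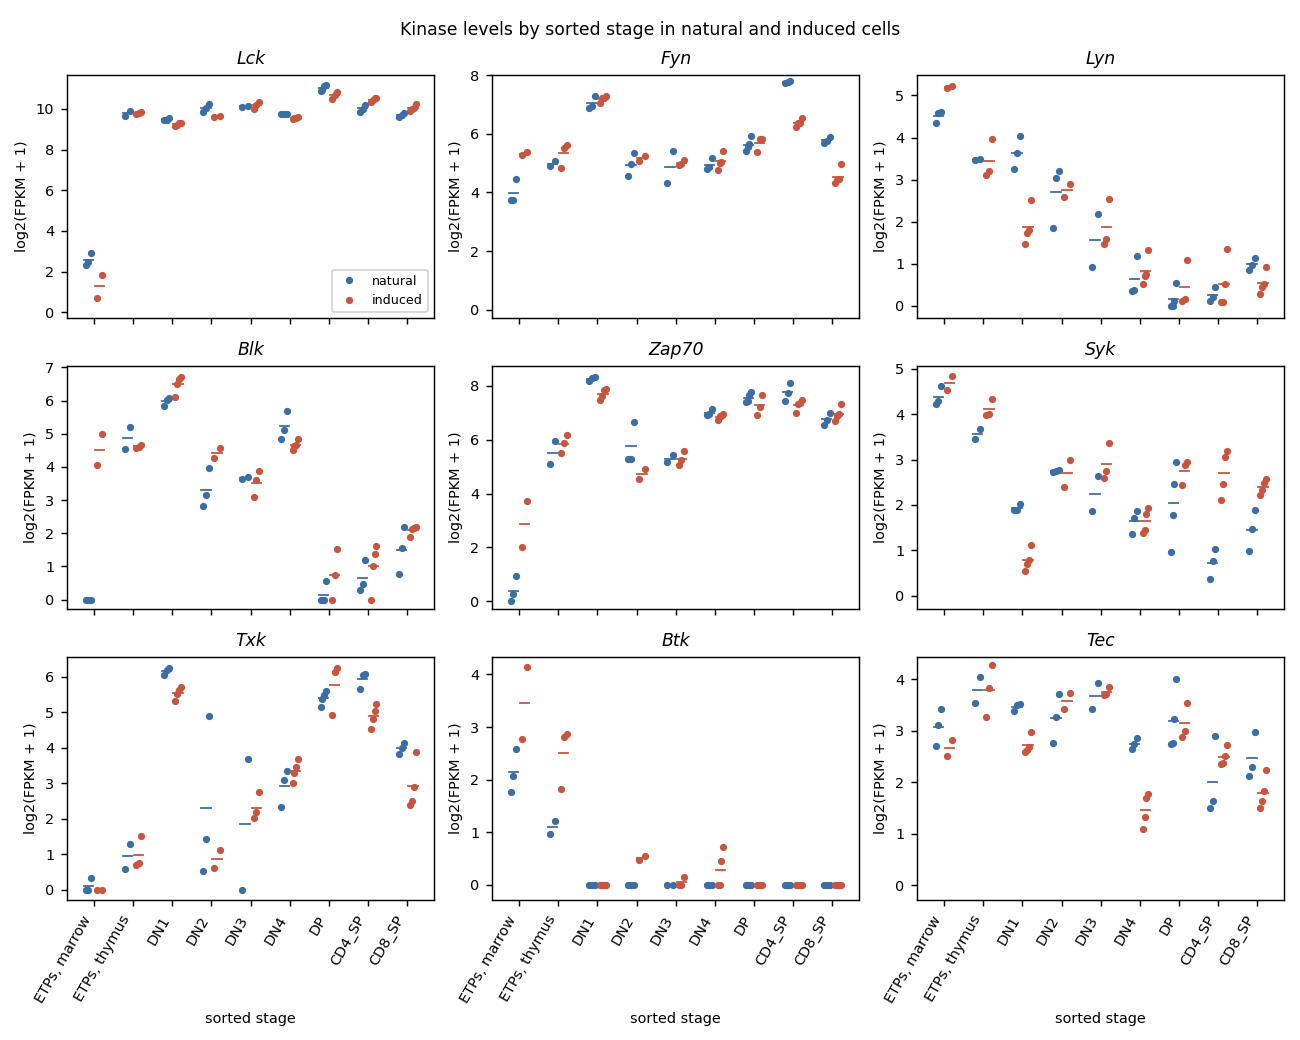
Log2(FPKM + 1) of each kinase by sorted stage in natural (blue) and induced (red) cells, with 1 point per library and bars at the group means. In both single positive groups every induced library lies below every natural one for Fyn and above for Syk, and in the marrow progenitors the libraries of the 2 sources are apart for Blk, Zap70, Fyn, Btk, Lck and Lyn.

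Induced and natural cells of the same label were then set against each other, the question being how far the kinases of reprogrammed cells match those of cells that had always been on the T path. Over 9 stages, 13 of 81 tests passed, 7 higher and 6 lower in induced cells, and over all genes 12.4% of tests did. The largest share was in marrow, where 5 of 9 kinases differed between BM_iETPs and BM_ETPs (31.1% of genes). Blk was 15.6 and 30.5 FPKM in BM_iETPs and listed at 0 in all 3 BM_ETPs libraries, a call that held in every alternative. Zap70 was 12.1 and 3.01 against 0, 0.194 and 0.936 (2.45 ± 0.33 (SE), adjusted p = 1.56e-08). Fyn was 37.4 and 40.7 against 12.3, 12.5 and 20.8 (1.34 ± 0.25 (SE), adjusted p = 1.48e-05). Btk was 5.79 and 16.6 against 3.21, 4.98 and 2.40 (1.31 ± 0.35 (SE), adjusted p = 0.0023). Lck was 2.60 and 0.649 against 6.50, 4.48 and 4.05 (-1.28 ± 0.23 (SE), adjusted p = 7.12e-06). The groups overlapped for none of the 5. With only these groups of 2 and 3 libraries fitted the adjusted p was 0.0924 for Zap70, 0.0535 for Fyn, 0.202 for Btk and 0.1401 for Lck, and without BM_iETPs replicate 2 that of Btk was 0.331. The B lineage markers given above for BM_iETPs (BM_ETPs 71.2 to 89.6 FPKM) and the myeloid markers of BM_ETPs moved with these differences, and their part was not tested. B receptor genes moved in the same direction as Blk and Btk: 9 of 12 were higher in BM_iETPs (median log2 difference 4.49), among them Blnk, the adaptor that Syk phosphorylates in B cells (496 against 1.17 FPKM, 7.95 ± 0.47).

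In thymic precursors only Btk differed, 1 of 9 (8.27% of genes), at 6.31, 6.04 and 2.55 FPKM in Thy_iETPs and 1.31 and 0.956 in Thy_ETPs (1.42 ± 0.35 (SE), adjusted p = 0.00442). The libraries did not overlap, but the call was lost with only these groups fitted (adjusted p = 0.537) and without Thy_ETPs replicate 2 (0.0875). With only these groups fitted 16 of all 17416 genes passed (0.0919%). Lck was 902 against 880.3 FPKM, a log2 difference of 0.04 (95% interval -0.42 to 0.50), and Zap70 57.8 against 46.9, at 0.33 (95% interval -0.33 to 0.997). Btk is X-linked. Xist was 5.28, 5.11 and 2.44 FPKM in Thy_iETPs and 7.95 and 6.73 in Thy_ETPs, and Ddx3y was 2.65, 2.85 and 4.39 against 0 in both Thy_ETPs libraries, without overlap for either. Dendritic markers summed to 31.1 to 63.1 FPKM in Thy_iETPs and 1153 to 2035 in Thy_ETPs. The part of these in the differences was not tested. Of 20 T receptor genes 5 were lower and 1 was higher (median 0.02), CD3 chains that these kinases act on among them, with Cd3d at 0.739 against 39.9 FPKM, -4.64 ± 0.23 and Cd3g at 51.4 against 911 FPKM, -4.13 ± 0.18 (log2 ± SE).

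In iDN1 against DN1 2 of 9 differed (18.8% of genes), both lower in induced cells. Lyn was 2.49, 4.74, 1.77 and 2.33 FPKM in iDN1 and 11.4, 8.58 and 15.3 in DN1 (-1.76 ± 0.32 (SE), adjusted p = 2.14e-05), and Syk was 0.720, 0.630, 1.17 and 0.450 against 2.69, 2.71 and 3.08 (-1.15 ± 0.27 (SE), adjusted p = 0.00112). The groups did not overlap, and both calls held in every alternative, that without natural DN1 replicates 1 and 2 included. Dendritic markers summed to 600.03 to 825 FPKM in DN1 and 21.9 to 87.9 in iDN1, and myeloid markers to 27.6 to 228 and 0 to 26.8. The part of these and of the natural killer markers was not tested. Xist was 0.449 to 1.39 FPKM in DN1 and 9.87 to 15.9 in iDN1, and Ddx3y 3.71 to 5.55 and 0 to 0.636, so sex and source cannot be told apart here. Of 8 tested genes on the fixed list of related kinases, 4 were lower in iDN1, 1 was higher and 3 did not pass. Fgr on that list, a Src kinase of myeloid cells, was lower in iDN1 (3.63 against 13.1 FPKM, -1.66 ± 0.43, log2 ± SE).

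Between iDN2 and DN2, and between iDN3 and DN3, 0 of 9 kinases passed (limma, 1.5% and 3.54% of genes), with an unadjusted p under 0.05 for 3 (Blk, Zap70 and Txk) and 1 (Syk). Intervals were wide for some: Txk in iDN2 minus DN2 was at -1.42 (95% interval -2.69 to -0.14), with DN2 replicate 2 apart as given above, and Zap70 at -1.03 (95% interval -1.69 to -0.36). In iDN4 against DN4 1 of 9 passed, where 0.741% of genes did: Tec, at 1.13, 2.39, 2.24 and 1.50 FPKM in iDN4 and 5.28, 5.70 and 6.22 in DN4, without overlap (-1.28 ± 0.28 (SE), adjusted p = 0.00973). Without DN4 replicate 3 its adjusted p was 0.0677 and without iDN4 replicate 1 0.0558.

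At the double positive stage 0 of 9 kinases passed between iDP and DP (limma, 10.4% of genes), with an unadjusted p under 0.05 for 1, Syk. Lck was 1638 against 2078 FPKM, -0.34 (95% interval -0.73 to 0.04), Zap70 157 against 188, -0.28 (95% interval -0.84 to 0.27), and Fyn 50.8 against 48.8, 0.05 (95% interval -0.36 to 0.47). Syk was 6.71, 4.46 and 6.31 FPKM in iDP and 6.74, 4.50, 0.938 and 2.45 in DP, 0.72 (95% interval 0.17 to 1.26). Of 20 T receptor genes 2 were higher and 0 lower.

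In the single positive cells Fyn and Syk differed in opposite directions in both lineages. In iCD4_SP against CD4_SP, where 2 of 9 kinases and 26.4% of genes differed, Fyn was 73.4, 81.7, 81.6 and 93.2 FPKM against 215, 225 and 212 (-1.39 ± 0.21 (SE), adjusted p = 3.27e-07). Syk was 7.27, 8.13, 3.34 and 4.50 against 1.03, 0.294 and 0.703 (1.98 ± 0.27 (SE), adjusted p = 3.89e-08). Every induced library lay below every natural one for Fyn and above for Syk, and both calls held in every alternative. Lck (0.43 (95% interval 0.05 to 0.82)), Zap70 (-0.46 (95% interval -1.02 to 0.10)) and Txk (-1.02 (95% interval -2.09 to 0.04)) did not pass. Of 19 genes that restrain or tune the kinases, inhibitors and phosphatases, 8 were lower in iCD4_SP, 1 was higher and 10 did not pass, with a median of -0.74 beside 0 over all genes. Among the lower were Ptprc (CD45), the phosphatase that frees Lck and Fyn from their inhibited form (142 against 566 FPKM, -1.98 ± 0.16), Cd5, an inhibitory receptor (71.02 against 232 FPKM, -1.70 ± 0.31), Ptpn22, a phosphatase of active Lck and Zap70 (91.7 against 181 FPKM, -0.96 ± 0.24), and Cblb, a ubiquitin ligase (2.92 against 9.95 FPKM, -1.49 ± 0.28, log2 ± SE). Sla2, an adaptor that lowers receptor levels, was the 1 that rose (75.2 against 43.8 FPKM, 0.75 ± 0.17). The other lists changed here too. Of 20 T receptor genes 6 were lower and 4 higher (median 0.16), and of 12 B receptor genes 4 were lower and 3 higher (median -0.03).

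In iCD8_SP against CD8_SP, with 2 of 9 kinases and 10.6% of genes, Fyn was 18.98, 20.4, 20.98 and 30.4 FPKM against 53.6, 58.7 and 50.5 (-1.24 ± 0.21 (SE), adjusted p = 8.35e-06), without overlap and held in every alternative. Syk was 3.66, 4.05, 4.56 and 4.95 against 2.73, 0.975 and 1.78 (0.95 ± 0.27 (SE), adjusted p = 0.0138), also without overlap, but its adjusted p was 0.0683 with only these groups fitted and 0.169 without CD8_SP replicate 2. Of the inhibitors and phosphatases 7 of 19 fell and 0 rose (median -0.38), Ptprc (90.9 against 209 FPKM, -1.25 ± 0.16) and Ptpn22 (54.9 against 167 FPKM, -1.58 ± 0.24) again among them. Of 20 T receptor genes 2 were lower and 2 higher, and of 12 B receptor genes 3 were lower and 0 higher. Beside the Syk difference, summed B lineage markers were 32.9 to 95.7 FPKM in iCD4_SP and 28.6 to 30.5 in CD4_SP, with Ms4a1, Pax5, Ebf1, Igll1 and Cd22 listed at 0 in iCD4_SP, and 23.8 to 38.04 in iCD8_SP and 27.5 to 51.1 in CD8_SP. Igkc, not on that marker list, was 193, 108, 3.12 and 2.07 FPKM in iCD4_SP replicates 1 to 4 and 106, 122 and 150 in CD4_SP. It was 0, 4.71, 0 and 0 in iCD8_SP and 77.2, 55.2 and 66.9 in CD8_SP. Summed dendritic markers were 23.8 to 37.9 FPKM in iCD4_SP and 45.97 to 225 in CD4_SP, and 22.8 to 44.6 and 58.02 to 422 in the CD8 groups. Xist, given above, moved with the source at these stages, and the part of these in the differences was not tested.

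**Figure D5:**
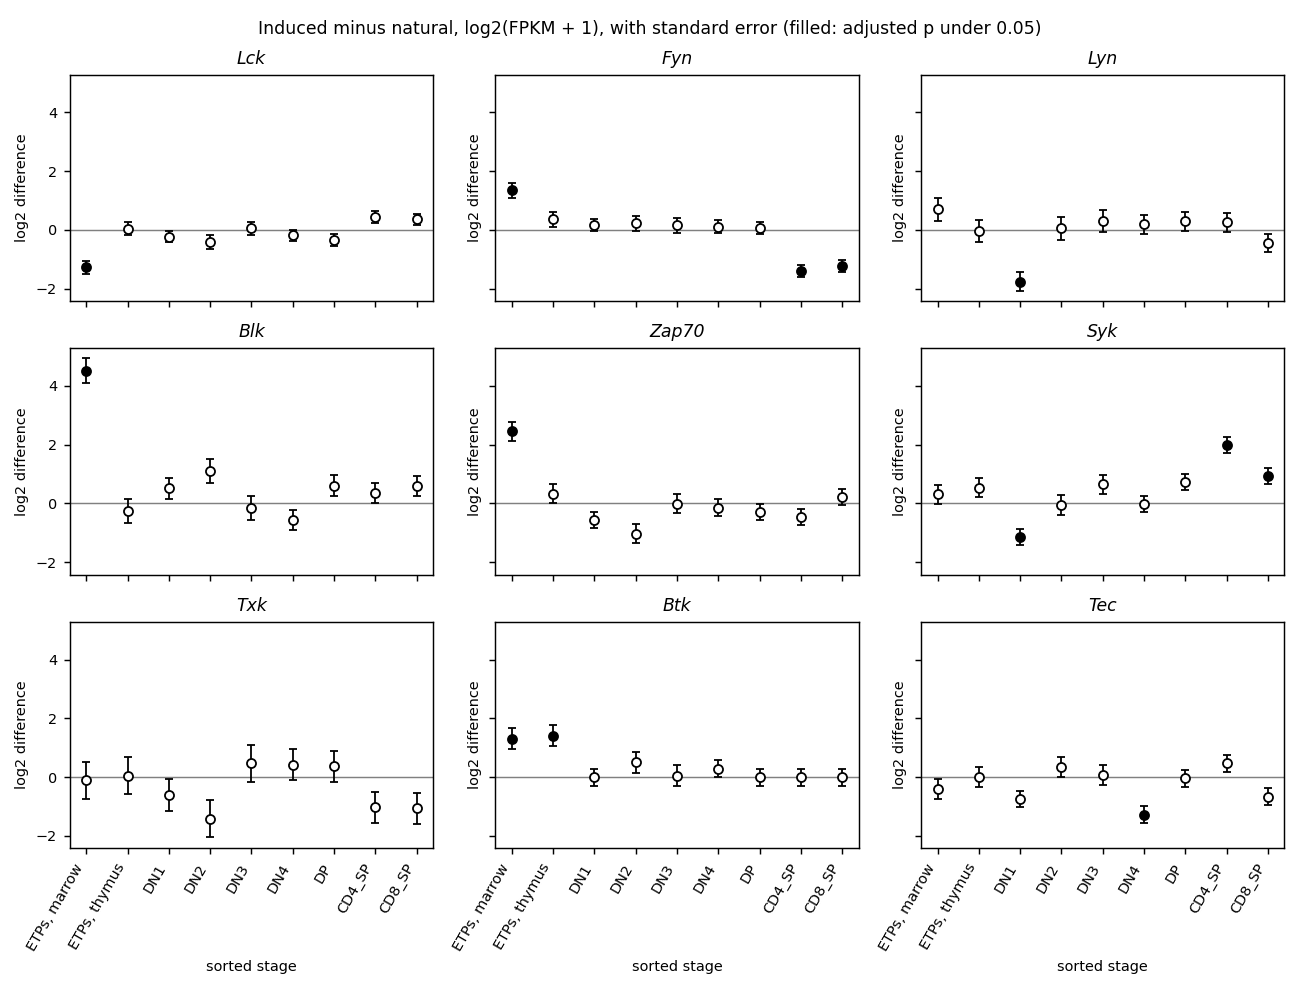
Log2 difference, induced minus natural, of each kinase at 9 sorted stages, with standard errors from the fit over all groups and filled points where the adjusted p is under 0.05. The 13 filled points are 5 in marrow ETPs, 1 in thymic ETPs, 2 in DN1, 1 in DN4 and 2 each in CD4_SP and CD8_SP, where Fyn lies below 0 and Syk above.

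Whether a step itself differed between sources was tested as a difference of differences. From DN4 to DP 0 of 9 passed (limma, 1.1% of genes), with an unadjusted p under 0.05 for 2, Blk and Tec: Lck rose by 1.12 in induced and 1.27 in natural cells, and Blk went by -3.92 and -5.09 on the log2 scale. From DP to CD4_SP 3 of 9 passed (17.3% of genes). Fyn rose by 0.70 in induced and 2.14 in natural cells, a difference of -1.44 ± 0.30 (SE), adjusted p = 0.000208, which held in every alternative. Syk went by -0.05 in induced cells and -1.32 in natural ones (1.27 ± 0.38 (SE), adjusted p = 0.0144), and Lck by -0.22 and -0.99 (0.78 ± 0.27 (SE), adjusted p = 0.0362). Syk lost its call in 5 of 21 alternatives (adjusted p up to 0.304) and Lck in 10 of 21 (up to 0.119). From DP to CD8_SP 1 of 9 passed (7.34% of genes): Fyn went by -1.14 in induced and 0.16 in natural cells (-1.30 ± 0.30 (SE), adjusted p = 0.00203), held in every alternative.

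The genes whose pattern over the 24 group means was most like each kinase were sought among 10922 genes that reached 5 FPKM as the mean of some group. Likeness was Pearson's r of mean log2(FPKM + 1), given as a description only, since groups share lineage and stage. For Lck they were Bcl11b (r = 0.95), Cd247 (0.95) and Sh2d2a (0.94), for Zap70 Sh2d2a (r = 0.95) and Nsg2 (0.93), and for Txk Axin2 (r = 0.93), Cd6 (0.91) and Ampd1 (0.90). Bcl11b is a T lineage transcription factor, Cd247 the zeta chain of the T cell receptor that Lck phosphorylates, and Sh2d2a a T cell adaptor that binds Lck. For Fyn they were Icos (r = 0.92), Zc3hav1 (0.88) and Tecpr1 (0.87). The pattern of Lyn was like that of Unc93b1 (r = 0.94) and Plcg2 (0.94), and that of Syk most like Myo1c (r = 0.92), B3gnt8 (0.89) and Lyn (0.88). Btk gave Myadm (r = 0.93), Irf5 (0.91) and Serinc3 (0.90), while Blk (Pde7a (r = 0.80), Snx5 (0.75) and Traf3ip2 (0.70)) and Tec (Stx16 (r = 0.80), Smap2 (0.75) and Ctsa (0.74)) had no gene as close. Spearman's rho kept some of these and replaced others: for Lck the closest was then Lat (rho = 0.94) and for Zap70 Cd5 (0.95). Among the 9 themselves, r was 0.88 for Btk and Lyn, 0.88 for Syk and Lyn, 0.88 for Zap70 and Lck and -0.86 for Btk and Lck.

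Over all 38 comparisons, 130 of 342 tests of a kinase passed. Of these, 70 held in every alternative and 60 were lost in at least 1, of which 46 were lost with only the groups of the comparison in the fit, where fewer libraries set the spread. In that setting the share of all genes that passed ran from 0% (iDN3 minus DN3) to 31.8% (Myeloid cells minus B cells). No call changed direction. By kind of comparison, 36 of 99 tests of natural steps passed (17.2% of tests over all genes), 29 of 72 of induced steps (13.9%) and 27 of 36 of mature lineages (35.1%). Against Pro-_Pre-B cells 21 of 27 passed (23.4%), and of the step differences 4 of 27 (8.59%).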

How the data were processed

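RNA from 1000 sorted cells per library was measured in 76 libraries. Per the submitters' processing notes, reads were handled with bcl2fastq, TopHat, Cufflinks 2.2.1 and Cuffnorm on the mouse build NCBIM37, and the authors deposited FPKM per Ensembl gene, with parameters and library normalization not given in the sources used here. Symbols came from GENCODE vM21 (GRCm38, another build, as are all coordinates printed) for 32916 of 37980 IDs (86.7%). Replicate 3 of Pro-_Pre-B, identical to replicate 1, was left out. Depth was estimated from the steps of low values of 4285 genes (1 annotated transcript, 1000 bases or longer). It came to 0.987 to 11.2 fragments per FPKM and kilobase (median 4.21), and 68.5% to 93.1% of the low values fell within 0.2 of whole fragments.

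Values were taken as log2(FPKM + 1), which understates differences of low genes. The 17416 genes that reached 1 FPKM in 2 or more libraries were fitted with limma 3.58.1 in R 4.3.3, 1 mean per group over 75 libraries, with trend and robust settings, two-sided, Benjamini-Hochberg adjustment over genes within each comparison, threshold 0.05. The fit was tested on simulated data. Summaries used Python 3.11.15, pandas 2.3.3, numpy 2.4.6 and matplotlib 3.10.9. The genes named were the 9 kinases, the fixed lists of related kinases, T and B receptor genes and inhibitors, marker lists, and for each kinase the 3 genes of highest r, some of which are not reported here. Fgr, Blnk, Cd3d and the other list members given as examples were picked after their values were seen. The members and lists were chosen with earlier results of these data known. Alternatives were a pseudocount of 0.1, no filter, an equal total per library, quantile normalization, library weights, a replicate block, only the compared groups, and each library left out. One more was chosen after seeing the data: leaving out natural DN1 replicates 1 and 2 and DN2 replicate 2.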

Additional observations from a re-analysis of the deposited data

Results flagged for a closer look

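In 64 groups of 4 libraries of a kinase, 4 held a single value far from the others. Chance gives such a value in about 1 in 20 groups where values are normally distributed. Where the other libraries were all listed at 0, as for Blk and Txk below, any value above 0 was flagged, so that rate does not hold. Blk was 0.462 FPKM in DP replicate 1, where the other 3 libraries were listed at 0. Txk was 0.414 FPKM in MPP replicate 2 and 3.00 FPKM in B cells replicate 1, where the others of each group were listed at 0. Btk was 2.21 FPKM in MPP replicate 2, below the other 3 MPP libraries.

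Of the steps tested, 4 differed between induced and natural cells by the test of the difference itself (limma, Benjamini-Hochberg adjustment). The step from DP to CD4_SP differed by 0.78 for Lck, -1.44 for Fyn and 1.27 for Syk on the log2 scale, and that from DP to CD8_SP by -1.30 for Fyn, induced minus natural. Xist and Ddx3y moved with the source at these stages, and their part was not tested.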

How the results depend on the processing

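Counts of kinases called kept within 1.5 times of the reported count in all but these settings. With only the groups of the comparison fitted, 18 tests of the induced steps passed (29 reported) and 13 of the comparisons with Pro-_Pre-B (21 reported). In the same setting, and within 1.5 times, the natural steps gave 25 (36 reported, 21 shared) and induced against natural 15 (13 reported, 7 shared). With library weights, 2 of the step differences passed (4 reported). Leaving out 1 library at a time gave 12 to 15 calls for induced against natural (13 reported), 33 to 39 for natural steps, 26 to 29 for induced steps, 25 to 29 for mature lineages (27 reported), 19 to 21 against Pro-_Pre-B and 2 to 5 for step differences, the low of 2 without DP replicate 1, CD4_SP replicate 2 or iDP replicate 2. The labels do not say that a replicate number pairs libraries. Over 77 pairs of same-numbered libraries in 30 pairs of compared groups their deviations from the group means correlated at -0.045 to 0.084, and in MPP and HSC, over 4 pairs, at 0.025 to 0.131. In 2 of 17 pairs of groups with 3 or more such pairs (DP and DN4, iDN4 and iDN3) every library correlated best with its own number, a hint from the data and not from the design. With a replicate block the counts were 14, 36, 29, 21 and 5 for induced against natural, natural steps, induced steps, Pro-_Pre-B comparisons and step differences, and the block ended 1 call, Tec in MPP minus HSC (adjusted p = 0.0618). Scaling to an equal total moved the share of higher genes among all called genes by over 10 points in 21 of 38 comparisons (by -20.4 to 24.8 points, in iDP minus DP from 46.6% to 71.4% and in iCD4_SP minus CD4_SP from 53.0% to 70.5%), and quantile normalization in 5. Only BM_ETPs minus MPP had its median over all genes moved by over 0.1, by -0.12 with an equal total. No kinase call reversed in any setting run. Btk and other low values rest on few fragments, so a gene listed at 0 may still be transcribed.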
